A study of Homo sapiens with 8 samples.

Results

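The proteasome subunit genes were taken as every gene whose symbol is PSMA, PSMB, PSMC or PSMD followed by a number, and 39 of the 22554 features in the deposited tables met that rule. They were examined in SKOV3 cells, an established human ovarian carcinoma line, sequenced as messenger RNA in 8 libraries. The 4 LDL libraries came from cells given low-density lipoprotein, the main cholesterol carrier of blood, at 50 µg/mL for 48 h in culture. The 4 control libraries came from cells kept in the same serum-containing medium without added LDL. Serum carries lipoproteins of its own, so the comparison is of added LDL against the medium alone.

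The proteasome is the protease that breaks down proteins tagged with ubiquitin. Its core particle is a barrel of outer alpha rings (PSMA genes), which gate entry, and inner beta rings (PSMB genes), which hold the catalytic sites. A regulatory particle caps the barrel: a ring of ATPases (PSMC genes) unfolds substrates, and further base and lid subunits (PSMD genes) bind ubiquitin, remove it and hold the complex together. In the immunoproteasome, PSMB9, PSMB10 and PSMB8 take the places of the catalytic subunits PSMB6, PSMB7 and PSMB5, which changes the peptides made for display on MHC class I. The immune subunits are known as targets of interferon signalling, and the whole set of constitutive subunits as targets of the transcription factor NFE2L1 when proteasome activity is short.

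The members were 7 alpha and 7 beta core genes, 3 immune beta genes, 6 ATPase genes, 3 base genes, 8 lid genes, 3 assembly chaperones of the base and 2 tissue-restricted core genes. The tissue-restricted pair was PSMA8 of testis and PSMB11 of thymus. Neither had a single count in any of the 8 libraries. Such a 0 leaves room for 0.0816 to 0.0865 CPM (counts scaled to library size) in an LDL library and 0.0668 to 0.0807 CPM in a control library, taking 3 counts as the limit and covering counting error only. The other 37 genes passed the filter on low counts and were tested among 15432 features. They lie on 16 chromosomes together with the undetected pair.

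Total counts were 34682501 to 36780334 in LDL libraries and 37189698 to 44883561 in control libraries. The labels do not say that the samples of a group came from separate cultures, so the p-values measure only the spread among the libraries, part of which may be technical. SKOV3 markers were present, among them ERBB2 at 2219 to 3092 CPM in LDL libraries and 2397 to 2700 CPM in control libraries, while the ovarian markers WT1 and MUC16 stayed under 1.1 CPM in every library. CDKN2A, lost in this line, and the leukocyte gene PTPRC were at 0 in all 8. LDL sample 4 stood apart on the first principal component over all genes, at 46.05 against -17.37 to 1.86 for the other libraries, and it had the lowest COL1A1, at 146 CPM against 343.4 to 398 CPM. LDL sample 1 was most often the lowest library for the subunit genes, and values without it are given for the genes it moved.

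The stretch of DNA just before a gene's start is shown for 4 subunits that stand for the classes compared: the constitutive chymotrypsin-like subunit PSMB5, the immune subunits PSMB9 and PSMB10, and the lid subunit PSMD3, the lid gene with the smallest p. RefSeq's promoter table (GRCh38.p14) matched 34 of the 39 members. The 200 bases before the start are chr14:23035221-23035420 on the minus strand for PSMB5 (the upstream one of 2 starts), chr6:32853992-32854191 on the plus strand for PSMB9, chr16:67936851-67937050 on the minus strand for PSMB10 and chr17:39980607-39980806 on the plus strand for PSMD3. Capitals mark matches to the motifs named after the sequences, each printed 5′ to 3′ on the gene's strand.
PSMB5: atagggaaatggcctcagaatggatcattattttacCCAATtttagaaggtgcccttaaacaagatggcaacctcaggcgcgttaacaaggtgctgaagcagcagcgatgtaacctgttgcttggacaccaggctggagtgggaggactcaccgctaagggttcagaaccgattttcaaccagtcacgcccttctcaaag
PSMB9: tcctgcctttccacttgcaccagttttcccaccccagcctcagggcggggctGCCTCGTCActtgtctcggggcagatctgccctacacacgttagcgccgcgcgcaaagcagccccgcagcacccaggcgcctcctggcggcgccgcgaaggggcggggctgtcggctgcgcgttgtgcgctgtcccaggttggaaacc
PSMB10: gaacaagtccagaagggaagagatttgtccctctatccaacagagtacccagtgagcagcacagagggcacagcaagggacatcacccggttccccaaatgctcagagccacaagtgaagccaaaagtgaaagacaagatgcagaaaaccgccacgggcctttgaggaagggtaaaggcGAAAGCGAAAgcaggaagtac
PSMD3: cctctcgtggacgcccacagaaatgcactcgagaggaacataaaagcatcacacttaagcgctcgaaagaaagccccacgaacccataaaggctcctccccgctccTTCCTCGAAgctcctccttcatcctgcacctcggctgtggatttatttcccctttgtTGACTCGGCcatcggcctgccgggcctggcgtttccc

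Motifs were searched on both strands by their letters alone. The antioxidant response element, bound by NFE2L1 and NFE2L2, was searched as TGACNNNGC and occurred before 8 of the 34 matched subunit genes (23.5%), against 11.3% of 27305 genes. It is capitalized in PSMB9, on the minus strand beginning 148 bases before the start, and in PSMD3, 37 bases before it. The CCAAT box occurred before 15 subunit genes (44.1%), against 32.7% of all genes, and is capitalized in PSMB5. The interferon-gamma element, searched as TTCNNNGAA, occurred before 6 (17.6%, against 6.32%), with PSMD3 shown 94 bases before its start. The interferon-stimulated response element, searched as GAAA, any 2 bases and GAAA, occurred before 2 (5.88%, against 2.97%), PSMB10 and PSMB4, and lies 21 bases before the start of PSMB10. None of the capitalized matches overlaps a match to another motif. A letter match describes the sequence and shows no binding.

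Levels between genes were compared on the FPKM scale, which divides by a length. The length used is not described in the sources used here, and the order depends on it. In CPM, PSMD2 had a mean of 851.8 and PSMA7 437.7, and PSMB2, 25th by FPKM, had 328.8. The highest was PSMA7, an alpha ring subunit, at 414.8, 463.3, 453.2 and 452.6 FPKM in LDL samples 1 to 4 and 414.2 to 435.8 FPKM in control samples. The beta ring subunit PSMB4 followed with a mean of 392.1 FPKM over the 8 libraries. Then came the base scaffold PSMD2 at 282.9 FPKM and PSMB1 at 282.7 FPKM, which did not differ beyond their spread over libraries. Core genes had a median level of 149.7 FPKM and regulatory genes 98.74 FPKM. The immune genes were low in the order: PSMB8 was 29th of 37 at a mean of 50.78 FPKM, PSMB10 31st at 44.88 FPKM and PSMB9 last at 11.52 FPKM, below the base chaperone PSMD5 at 23.12 FPKM. PSMB9 still lay at 9.386 to 14.13 FPKM in the LDL libraries and 9.796 to 13.62 FPKM in the control libraries.

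**Figure D1:**
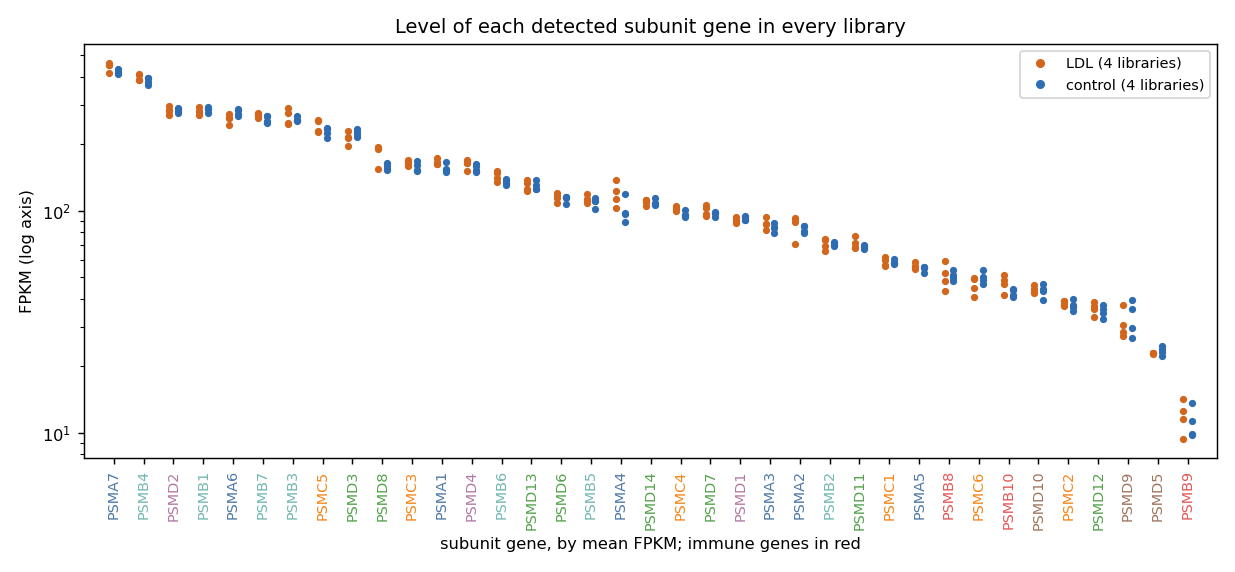
FPKM on a log axis for each of the 37 detected subunit genes, ordered by mean level, with 4 LDL libraries (orange) left of 4 control libraries (blue) and class colours on the gene names. The order runs from PSMA7 at a mean of 434.3 FPKM to PSMB9 at 11.52 FPKM, and the LDL and control points of each gene overlap.

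In counts, the subunit genes with added LDL lay close to their control levels. Not one of the 37 tested genes was called by the quasi-likelihood test of edgeR at an adjusted p under 0.05, where 0.0648% of all 15432 features were called, and DESeq2 and limma voom also called none. With so low a share, 0 calls among 37 genes says little by itself. Not one reached an unadjusted p under 0.05, against 5.59% of all features, and in no gene did the 4 LDL values stand clear of the 4 control values, against 3.45%. At such shares few of 37 genes would be counted anyway. The unadjusted p ran from 0.0718 for PSMB10 to 0.978 for PSMD2, and the adjusted p from 0.879 to 0.997. The median log2 fold change of the members was 0.04 (1.02-fold), against 0.01 over all features tested. Of the 37, 26 had a value above 0 (70.3%), as did 52.3% of all features, and subunits that work in 1 complex are not independent of each other.

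The intervals, taken from counts, bound how large a difference in counts these libraries could hide. For 35 of the 37 genes (94.6%) the 95% interval of the fold change lay within 1.2-fold either way, against 46.6% of all features and 70.7% of those with a mean of at least 10 CPM. Members had means of 12.21 to 851.8 CPM, and neither comparison group was matched for level. The higher share is therefore not shown to be a trait of these genes. The bound does not carry over to FPKM, where PSMA4 differed by 0.24 (SE 0.0989) and PSMD8 by 0.21 (SE 0.0705) on the log2(FPKM + 1) scale. In counts the exceptions were the immune subunits PSMB9, whose interval ran from 0.877 to 1.29-fold, and PSMB10, from 0.991 to 1.22-fold. Across the 8 libraries the highest value of a gene was 1.07 to 1.46 times its lowest, with a median of 1.14. The coefficient of variation had a median of 5.09% among LDL samples and 3.45% among control samples; without LDL sample 1 the LDL median was 3.36%.

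**Figure D2:**
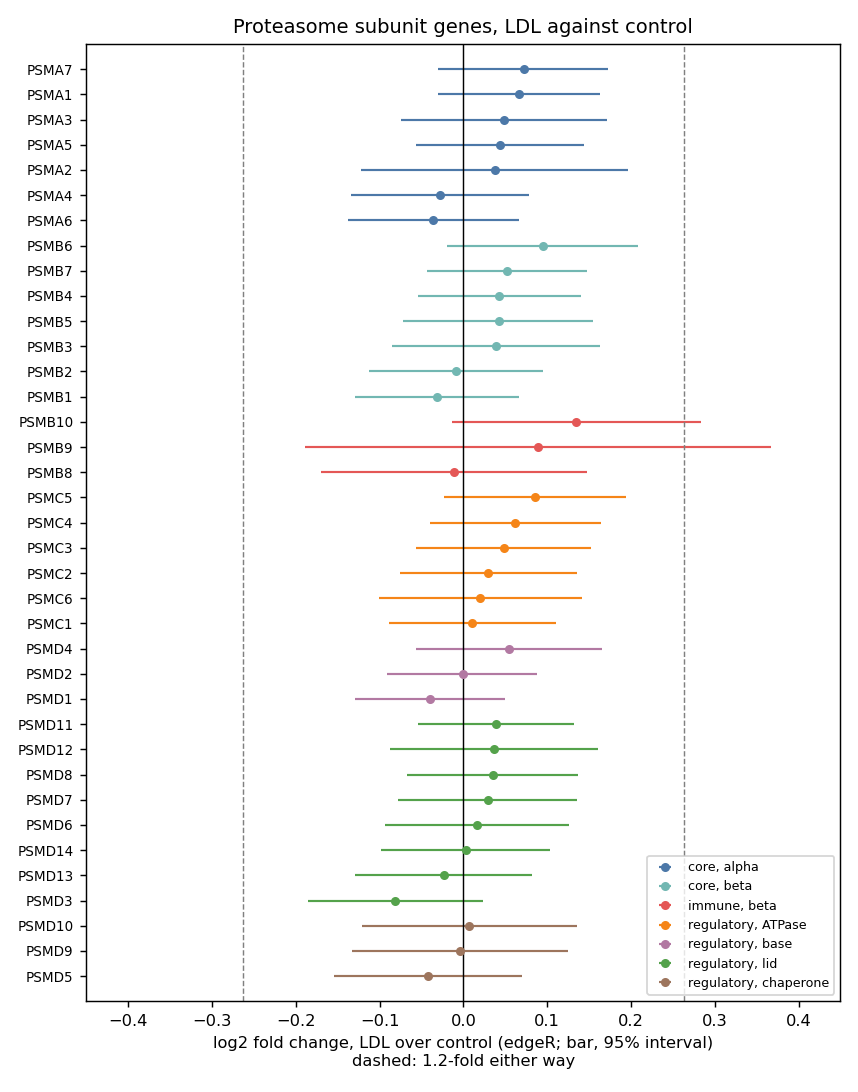
Log2 fold change of each tested subunit gene, LDL over control, with its 95% interval from edgeR, grouped by class; dashed lines mark 1.2-fold either way. Every interval crosses 0, and those of PSMB9 and PSMB10 alone pass a dashed line.

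Among the 7 alpha genes, 5 had values above 0 and 2 below, with a median log2 fold change of 0.04, and 0 were called. PSMA7 had 409.3, 469.4, 459.9 and 455.7 CPM in LDL samples 1 to 4, against 435.1, 418.5, 427.4 and 426.3 CPM in control samples 1 to 4. LDL samples 2 to 4 were above every control sample and LDL sample 1 was below them all. The fold change was 1.05 (95% interval 0.979 to 1.13; exact two-sided permutation p = 0.143), a log2 value of 0.07, and 0.11 without LDL sample 1. PSMA1, another alpha subunit, had 211.2, 225.4, 221.4 and 217.7 CPM with LDL and 206.2, 220, 203.4 and 206.6 CPM in controls. Here 2 LDL values lay below the highest control value, and the difference of 0.07 on the log2 scale had an adjusted p of 0.884 (exact permutation p = 0.0857).

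Estimated counts of 4 members, PSMA1, PSMA2, PSMA6 and PSMB10, are less certain, because annotated protein-coding genes overlap them on the same strand and were counted separately. The overlapping gene took 0.819% of the summed counts for PSMA1 and 5.27% for PSMA2. PSMA2 had 103.6, 135, 136.1 and 132.6 CPM with LDL and 127.5, 126.7, 119.6 and 120.5 CPM in controls, so that LDL sample 1 was the lowest of all and the other LDL samples the highest. The log2 fold change was 0.04, and 0.12 without LDL sample 1. The overlapping gene ENSG00000256646 had 574 counts in LDL sample 1, whereas LDL samples 2 to 4 had 91 to 143 and control samples 166 to 433. Summed with it, PSMA2 came to 119, 139.2, 139.2 and 135.2 CPM with LDL and 136.9, 131.1, 130.7 and 124.8 CPM in controls, and LDL sample 1 was still the lowest. For PSMA6 the overlapping ENSG00000258790 took 9.61% of the summed counts, and the sum was 278.8, 296.2, 292.7 and 281.1 CPM with LDL and 300.7, 284.6, 297 and 295.1 CPM in controls. Those ranges overlap.

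The 7 constitutive beta genes also had 5 values above 0 and 2 below, with a median of 0.04 and 0 called. PSMB6, which carries the caspase-like site, had 115.3, 132, 130.3 and 120.6 CPM with LDL, against 114.4, 117.3, 114.1 and 120.7 CPM in controls. It had the smallest p of the class (1.07-fold, interval 0.987 to 1.16, adjusted p = 0.884), and LDL samples 2 and 3 alone exceeded all controls. PSMB7, the trypsin-like subunit, had 265.2, 284.3, 279.2 and 281.3 CPM with LDL and 273, 256.4, 265.5 and 275.8 CPM in controls. PSMB5, the chymotrypsin-like subunit and main target of bortezomib, had 114.2, 125.8, 126.4 and 129.4 CPM with LDL and 120.5, 113.4, 122.6 and 125.3 CPM in controls. For PSMB7 and PSMB5 alike, LDL samples 2 to 4 were above all controls and LDL sample 1 was within their range. Their fold changes were 1.04 for PSMB7 (adjusted p = 0.926) and 1.03 for PSMB5 (adjusted p = 0.95). Without LDL sample 1 the log2 value of PSMB7 was 0.07, against 0.05 with it, and that of PSMB5 was 0.08, against 0.04.

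The 3 immune subunits had coefficients of variation above the member median in both groups, for PSMB10 among controls only slightly (3.86% against 3.45%). Their log2 fold changes did not share a direction. PSMB10 had 46.73, 50.24, 53.04 and 42.68 CPM with LDL, against 42.22, 45.27, 42.57 and 45.36 CPM in controls. LDL samples 1 to 3 were above every control and LDL sample 4 was within the control range. Its fold change of 1.10 was the largest of all 37 members (log2 0.14, SE 0.0704, adjusted p = 0.879, exact permutation p = 0.114), and the log2 value ran from 0.09 to 0.19 as each library was left out. PSMB9 had 14.63, 12.38, 13.32 and 10.02 CPM with LDL and 10.32, 14.38, 10.62 and 12.03 CPM in controls, so that the LDL group held both the highest and the lowest value. Its log2 fold change of 0.09 (SE 0.132) was 0.01 without LDL sample 1 and 0.20 without control sample 2. PSMB8 had 70.62, 53.41, 64.2 and 59.19 CPM with LDL and 60.69, 63.02, 59.54 and 66.03 CPM in controls, again with both extremes among LDL samples, and a log2 fold change of -0.01 (adjusted p = 0.993).

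PSMB8 and PSMB9 lie side by side in the MHC class II region, in the GRCh38 coordinates of GENCODE release 29. PSMB8 spans chr6:32840717-32844703 on the minus strand and PSMB9 chr6:32844136-32859585 on the plus strand. They overlap by 568 bases, and PSMB9 overlaps the peptide transporter gene TAP1, on the minus strand at chr6:32845209-32853978, by 8770 bases. Both overlaps lie before the RefSeq start used above, which follows chr6:32854191, in the upstream part of the PSMB9 span. The libraries came from a stranded kit, but the strand setting of the counting is not given in the sources used here, so reads of PSMB9 and its antisense neighbours may not be fully separated. TAP1 had 65.96, 52.89, 58.92 and 50.41 CPM with LDL and 55.23, 58.05, 53.52 and 61.03 CPM in controls. LDL sample 1 was the highest library for PSMB8, PSMB9 and TAP1 alike. It was also the highest for 17.2% of all features with a mean of at least 10 CPM. PSMB10 lies on chr16:67934502-67937087, minus strand, where ENSG00000261884 overlaps it by 1516 bases on the same strand and took 2.63% of their summed counts.

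The share of each catalytic pair held by its immune subunit, taken from FPKM, describes the mix of messages at each site. At the caspase-like site PSMB9 made up 9.51, 7.15, 7.78 and 6.3% of PSMB9 plus PSMB6 with LDL and 6.86, 9.15, 7.05 and 7.5% in controls. The means were 7.69 ± 1.36% with LDL and 7.64 ± 1.04% in controls (SD, n = 4 each). PSMB10 made up 14.9 ± 1.17% of PSMB10 plus PSMB7 with LDL and 14.2 ± 0.68% in controls, and PSMB8 made up 31 ± 3.34% of PSMB8 plus PSMB5 with LDL and 31.7 ± 1.47% in controls. At each of the 3 sites the LDL and control shares overlapped. SKOV3 messages at these sites were mostly constitutive in both groups, in the order chymotrypsin-like, trypsin-like and caspase-like from the highest immune share to the lowest. The shares concern messenger RNA and say nothing of assembled protein.

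**Figure D3:**
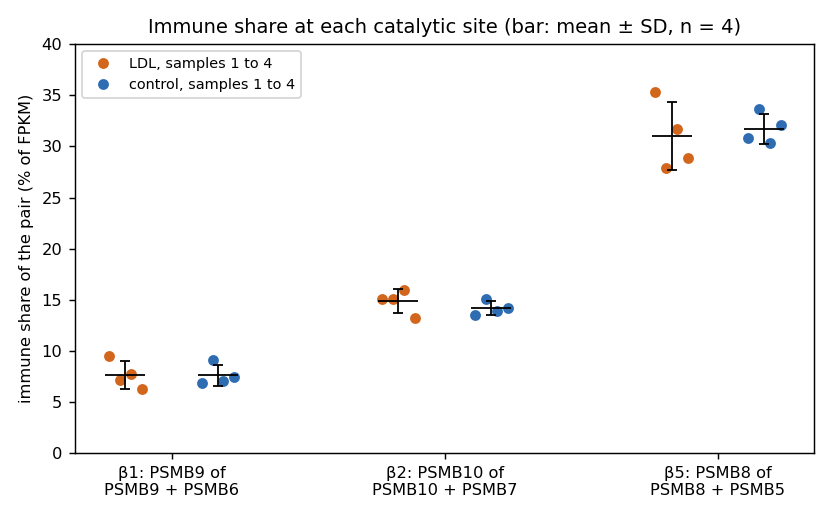
Percentage of the summed FPKM of each catalytic pair that belonged to the immune subunit, for 4 LDL (orange) and 4 control (blue) libraries, with mean ± SD; the sites are labelled β1 (caspase-like), β2 (trypsin-like) and β5 (chymotrypsin-like). The LDL means are 7.69, 14.9 and 31% and the control means 7.64, 14.2 and 31.7%, with overlapping points at every site.

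In counts all 6 ATPase genes had log2 fold changes above 0, from 0.01 to 0.09 with a median of 0.04, and 0 were called; in FPKM PSMC6 lay below 0, at -0.11. PSMC5 had the smallest p among them, with 309.1, 356.1, 330.3 and 356.9 CPM with LDL and 325.4, 306.1, 317.7 and 325.4 CPM in controls. LDL samples 2 to 4 were above every control and LDL sample 1 was near the lowest control (1.06-fold, interval 0.984 to 1.14, adjusted p = 0.884). Its log2 value was 0.09, and 0.13 without LDL sample 1. FTSJ3, on the opposite strand, overlaps PSMC5 by 2861 bases. PSMC4 had 179.4, 181.8, 173.8 and 185 CPM with LDL and 168.6, 163.9, 173.5 and 183.6 CPM in controls. All 4 LDL values exceeded 3 of the control values (1.04-fold, adjusted p = 0.907). The summed level of the 6 genes was 650.8 ± 18.9 FPKM with LDL and 625.4 ± 21 FPKM in controls (SD, n = 4 each).

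Base and lid subunits gave 0 calls as well. Of the 3 base genes 1 had a value above 0: PSMD4, a ubiquitin receptor, with 203.2, 228.6, 236.2 and 227.3 CPM with LDL and 217.9, 205.9, 213.2 and 224.8 CPM in controls. Its log2 fold change was 0.06, and 0.10 without LDL sample 1. PSMD1, a large scaffold of the base, had 314.6, 325.9, 311.7 and 305.3 CPM with LDL and 322.6, 318.3, 323.5 and 328 CPM in controls. Here 3 LDL values lay below every control and LDL sample 2 within their range (0.973-fold, interval 0.914 to 1.04, adjusted p = 0.939). PSMD2, the other scaffold, had the largest p of all members and a fold change of 0.999.

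Of the 8 lid genes, 6 had values above 0 and the median was 0.02. PSMD3 stood lowest of all 37 members. It had 501.7, 484.4, 482.4 and 439.4 CPM with LDL, against 478.6, 508.5, 505.1 and 525.3 CPM in controls, with LDL sample 4 below every control and the other LDL samples within their range. The fold change was 0.946 (log2 -0.08, SE 0.0495, interval 0.88 to 1.02, adjusted p = 0.884, exact permutation p = 0.171). PSMD3 lies at chr17:39980797-39997960, 0.25 Mb from ERBB2, the receptor gene for whose amplification SKOV3 is known. The beta gene PSMB3, 0.924 Mb from ERBB2, had a log2 fold change of 0.04. A link between position and difference was not tested. PSMD11, which ties the lid to the core, had 285.8, 269.3, 281.4 and 267.3 CPM with LDL and 269.8, 261.5, 272.3 and 270.8 CPM in controls (1.03-fold, adjusted p = 0.943). PSMD14, the deubiquitinase of the lid, had a fold change of 1.00 with an interval from 0.934 to 1.07.

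The 3 chaperones that help assemble the base, PSMD5, PSMD9 and PSMD10, had log2 fold changes from -0.04 to 0.01. PSMD5 had 77.97, 81.22, 80.26 and 81.23 CPM with LDL and 83.95, 81.24, 87.02 and 77.97 CPM in controls. PSMD10, also known as gankyrin, had 64.04, 70.35, 68.35 and 64.33 CPM with LDL and 65.63, 71.1, 60.96 and 68.01 CPM in controls. For PSMD5, 3 control samples were above every LDL sample and control sample 4 was level with the lowest of them. For PSMD10 the groups overlapped throughout, and its sign turned with the setting.

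Much of the spread within the LDL group lay in LDL sample 1. It was the lowest of the 8 libraries for 13 of the 37 subunit genes (35.1%), all of them among the 34 genes outside the immune class, against 16.9% of all features with a mean of at least 10 CPM. The mean log2 CPM of the alpha genes, relative to the mean of 8 libraries, was -0.10, 0.04, 0.07 and 0.04 in LDL samples 1 to 4 and between -0.02 and -0.01 in control samples. The immune class went the other way in LDL sample 1, at 0.16, with -0.02, 0.13 and -0.15 in LDL samples 2 to 4 and -0.13, 0.09, -0.12 and 0.02 in control samples.

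**Figure D4:**
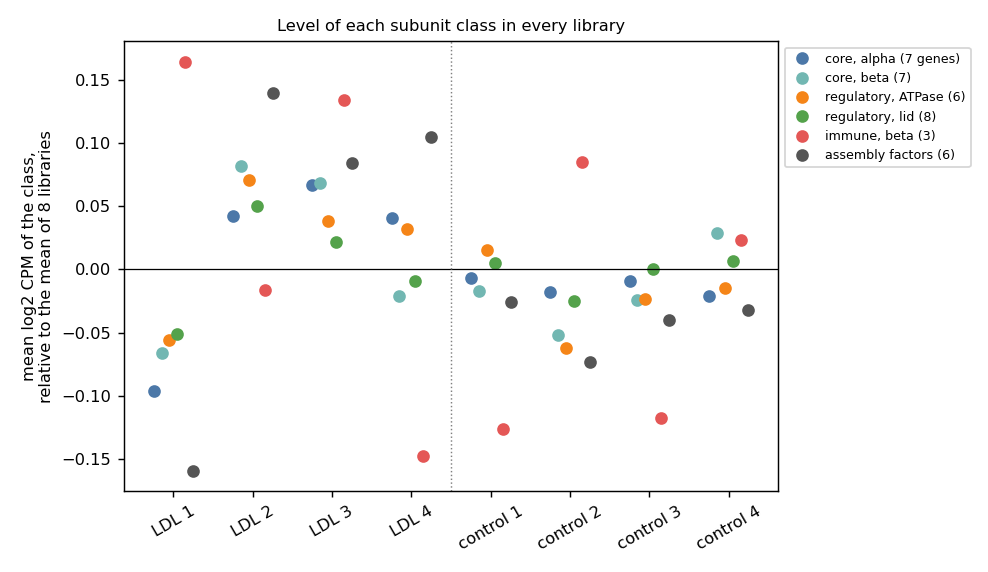
Mean log2 CPM of 5 subunit classes and the assembly factors in each library, relative to the mean of the 8 libraries, with LDL samples left of control samples. In LDL sample 1 the alpha genes are at -0.10 and the assembly factors at -0.16 while the immune genes are at 0.16.

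Without LDL sample 1 the members still had 0 calls, and the smallest adjusted p was 0.166, for PSMA7. The median log2 fold change of the 37 genes became 0.06, with 29 above 0, against 52% of all features. Among them, 6 reached an unadjusted p under 0.05 (16.2%), against 14.6% of all features in the same fit, a share near that background. Likewise 6 had groups that did not overlap (16.2%, against 14.3%): PSMA2, PSMA7, PSMB5, PSMB7, PSMC5 and PSMD4, all higher with LDL. This fit is detailed because LDL sample 1 was most often lowest for subunit genes, so part of the rise follows from that choice. As each sample was left out in turn, the number of members above 0 ran from 22 (without LDL sample 2) to 29. For PSMA2 the groups overlapped again once its overlapping gene was added, with LDL sample 4 at 135.2 CPM and control sample 1 at 136.9 CPM. The core median was 0.08, against 0.04 with all libraries, and the immune median 0.01, against 0.09. The immune median also moved with other libraries, to 0.18 without LDL sample 4 and 0.15 without control sample 2.

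Genes that work with the proteasome, 44 in 7 lists, gave 0 calls, where 0.0648% of all features were called. With so low a share, 0 calls among 44 genes says little about them. All 6 assembly factors, 5 of the core and PAAF1 of the regulatory particle, had log2 fold changes above 0, with a median of 0.10 and 0 called. POMP, which matures the core, had 70.32, 87.73, 91.56 and 91.31 CPM with LDL and 82.21, 79.9, 78.03 and 79.77 CPM in controls. Its LDL samples 2 to 4 were above every control and LDL sample 1 was below them all. Its log2 fold change was 0.09, and 0.17 without LDL sample 1 (adjusted p = 0.1). PSMG3, an assembly chaperone with the smallest p of the list, had 23.39, 26.21, 24.66 and 24.74 CPM with LDL and 24.09, 20.49, 22.29 and 24.11 CPM in controls (1.09-fold, adjusted p = 0.884). Without LDL sample 1 the median of the 6 was 0.16 and 4 of them had groups that did not overlap, against 14.3% of all features, again with 0 called. SEM1, a small lid protein outside the naming rule, had 21.23, 34.44, 31.69 and 32.15 CPM with LDL and 26.01, 30.36, 26.73 and 24.71 CPM in controls; its log2 fold change was 0.15 with an adjusted p of 0.93, and 0.28 with an adjusted p of 0.0917 without LDL sample 1.

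The 4 genes of the NFE2L1 axis all lay below 0, with a median log2 fold change of -0.06. NFE2L1 itself had 395.7, 361, 361.4 and 332.5 CPM with LDL and 353, 373.5, 393.2 and 386.2 CPM in controls. DDI2, the protease that releases NFE2L1 from its membrane-bound form, had 72.81, 69.63, 66.42 and 66.8 CPM with LDL and 77.46, 75.95, 72.92 and 69.38 CPM in controls (0.932-fold, adjusted p = 0.884). In both genes the groups overlapped. Without LDL sample 1, NFE2L2 moved to 0.02 and the other 3 stayed below 0.

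Among the caps and the inhibitor of the core, 3 of 5 genes lay above 0 with a median of 0.01. PSME3, the nuclear cap, had the smallest p (0.97-fold, adjusted p = 0.94). Of 6 proteasome-associated enzymes 1 lay above 0, and the ligase UBE3C had the smallest p (0.969-fold, adjusted p = 0.937). Ubiquitin genes, activating enzymes and shuttle factors had 8 of 14 above 0.

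Of 7 genes of interferon signalling and antigen processing, 2 lay above 0 and the median was -0.05. NLRC5, the transactivator of MHC class I genes, had 27.32, 23.8, 24.17 and 21.5 CPM with LDL, against 27.48, 31.59, 29.78 and 29.02 CPM in controls. Every LDL value was below every control value, LDL sample 1 by a narrow margin (0.821-fold, interval 0.729 to 0.925, the exact permutation p was the smallest that 4 against 4 can give). NLRC5 was the 1 gene of these 7 whose groups did not overlap, and 3.45% of all features had such groups. Its adjusted p over all features was 0.534, so it was not called. Without LDL sample 1 the log2 value was -0.35 with an adjusted p of 0.0407, a call that 0.953% of all features shared. In FPKM the groups of NLRC5 overlapped, with 4.234, 5.973, 3.875 and 3.337 FPKM with LDL and 4.293, 4.725, 4.548 and 4.653 FPKM in controls, and on the log2(FPKM + 1) scale the difference was -0.08 with an adjusted p of 0.941. IRF1 (0.963-fold) and B2M (1.01-fold) had overlapping groups.

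Counts and FPKM gave the same picture for most subunits, and the differences were widest for PSMA4, PSMD8 and PSMC6. PSMA4, an alpha subunit, had 209.1, 237.1, 237.6 and 234.5 CPM with LDL and 235.5, 226.2, 234.5 and 240 CPM in controls, a log2 fold change of -0.03. Its FPKM values were 102.9, 137.3, 122.7 and 113.1 with LDL and 96.94, 119.4, 89.05 and 97.55 in controls, a difference of 0.24 on the log2(FPKM + 1) scale (unadjusted p = 0.0342, adjusted p = 0.75 in limma). PSMD8, a lid subunit, had a log2 fold change of 0.04 in counts and 0.21 in FPKM (unadjusted p = 0.0132, adjusted p = 0.663). Its FPKM values were 154.2, 194.1, 189.8 and 191.9 with LDL and 158.7, 152.8, 153.7 and 163.8 in controls, with LDL samples 2 to 4 above every control. These 2 of the 37 genes (PSMA4 and PSMD8) passed an unadjusted p under 0.05 in FPKM, where 6.29% of all features did. PSMC6, an ATPase, had a log2 value of 0.02 in counts and -0.11 in FPKM (unadjusted p = 0.138), with 49.13, 40.91, 44.8 and 49.7 FPKM with LDL and 53.76, 50.33, 48.6 and 46.52 FPKM in controls. With 1 fixed length per gene, FPKM would keep step with CPM across libraries. PSMA4 did not: LDL sample 2 and control sample 3 had 237.1 and 234.5 CPM but 137.3 and 89.05 FPKM. The divisor thus differed between libraries for this gene. The length that the FPKM values were divided by has no description in the sources used here.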

How the data were processed

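Libraries were made with a stranded Illumina TruSeq mRNA kit, per the labels' protocols. Tools listed in the submitters' processing notes were DESeq2 1.26.0, HISAT2 and featureCounts, with the GRCh38 build; annotation and strand setting were not given in the sources used here. Gene counts, as deposited by the authors, are whole but were handled as estimated counts, since 55.17% of values from 1 to 20 were even and 2557 features carry assembly identifiers. The authors also deposited FPKM, which divide by a length and by depth. For PSMA4 the divisor was not the same in every library. Groups came from sample titles.

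Counts were tested with edgeR 4.0.16 (quasi-likelihood, TMM, filterByExpr, robust dispersion, group only) in R 4.3.3, with Benjamini-Hochberg adjustment over 15432 features, and FPKM with limma 3.58.1 on log2(FPKM + 1). CPM are TMM-scaled. Chi-square per degree of freedom between libraries of a group was 6.67 to 27.5, more than repeat sequencing of the same library gives by counting error. It does not show that the cultures or RNA were separate. The test was checked on simulated counts. The pass limits of that check were set on far larger changes than those of the subunit genes, so it does not bear on differences that small. Members and lists were chosen with earlier results of these data known. Named with values were the catalytic and tissue-restricted genes, the highest and lowest by FPKM, the 2 smallest p in each class, and the smallest p in each related list, of which 1 is not reported here. PSMA2, PSMA4, PSMA6, PSMC6, PSMD2, PSMD8, PSMD14, PSMB4, PSMB3, PSMB1, POMP, TAP1, NFE2L1, NFE2L2, IRF1 and B2M were named after their values were seen. Coordinates came from GENCODE release 29 (GRCh38), and promoters from RefSeq.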

Additional observations from a re-analysis of the deposited data

Results flagged for a closer look

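Within groups of 4 libraries, 88 sets of values were examined for a sample far from the other 3, for which chance flags about 1 in 20 groups; 2 stood out, both in LDL sample 1. PSMA2 had 103.6 CPM there and 132.6 to 136.1 CPM in the other LDL samples, a gap of 0.904 of the group's range in log2 CPM, beyond Dixon's critical value. Summed with its same-strand overlapping gene, a setting chosen after seeing the data, the gap was 0.814 of the range and no longer beyond it. PSMA4 had 209.1 CPM there and 234.5 to 237.6 CPM in the other LDL samples, a gap of 0.895 of the range in log2 CPM.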

How the results depend on the processing

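No alternative called a subunit gene: the count was 0 under other normalizations, filters, tools and units and as each sample was left out. Few of all genes were called in any setting, so that 0 says little by itself. Over all genes, 10 calls became 50 with DESeq2, 2 with the replicate block, 4 on log2(FPKM + 1), 2 on log2(FPKM + 0.1) and 3 on log2(FPKM + 1) without a minimum. Leaving out single samples gave 2 (without control sample 3) to 149 calls (without LDL sample 1), and 26 without LDL sample 4; the cause was not tested. Same-numbered samples did not deviate together (correlations from -0.101 to 0.06), so the numbers were not taken to pair them, and the block called no subunit. The median log2 fold change of the members stayed above 0, from 0.01 to 0.06; the regulatory median was -0.005 without LDL sample 2. PSMD10 turned to -0.001 with upper-quartile factors and to -0.001 with no filter, and ranged from -0.032 to 0.041 as samples were left out. PSMB8 ranged from -0.081 to 0.05 as samples were left out, above 0 without LDL sample 2 (0.05), LDL sample 4 (0.01) or control sample 4 (0.017). Of the other values for single genes, 404 kept their direction and side of the threshold. With 4 samples a group, differences inside each gene's interval could not be resolved.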
